A study of Rattus norvegicus with 12 samples.

Results

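Hearts of male SD (Sprague-Dawley) rats given sorafenib for 14 days were compared with hearts of rats given water for 14 days. Sorafenib was given by gavage once a day at 50 mg per kg of body weight, and the controls received the same volume of deionized water. All animals were wild type, and the labels give their weight at the start but no age and name no vehicle for the drug. The comparison holds 6 of the 12 RNA libraries of the series, 3 from each group, chosen by treatment and day. They are named here by the numbers of their labels: water replicates 2, 3 and 7 and sorafenib replicates 5, 6 and 7. The other 6 libraries come from rats treated in the same 2 ways for 28 days, and they were used only to set a second time point beside the first. Whole heart tissue was sequenced after removal of ribosomal RNA. Nothing in the labels says that every library is a rat of its own, and the p-values cover only how much these libraries vary.

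Sorafenib is a cancer drug that blocks the RAF kinases and a set of receptor tyrosine kinases, among them the VEGF and PDGF receptors, KIT, FLT3 and RET. RAF passes signals from such receptors through MEK to ERK, and ERK in turn switches on genes that restrain it, the Sprouty and dual-specificity phosphatase families. In the heart, VEGF keeps the capillary endothelium alive and sprouting. Hypertension, ischaemia and loss of contractile function are known side effects of the drug. The series is about its cardiac toxicity, the splicing factor RBM20, and genes of the sarcomere and the mitochondria.

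The libraries held 13746366 to 18534816 counted read pairs. Sorafenib replicate 5 was the shallowest and stood apart from the other 5. Its share of counts on the 45S ribosomal precursor Rn45s was 0.8417%, against 0.0977% to 0.2897% in the others. In a principal component analysis of log2 CPM (read counts scaled to the size of each library), the first component, with 31.5% of the variance, had all 3 water libraries between -39.26 and -21.47 and all 3 sorafenib libraries between 19.61 and 36.05. On the second component, with 23.6% of the variance, sorafenib replicate 5 lay at -52.66 and the others between -4.42 and 21.43. The label of heart tissue fitted the markers: all 22 cardiomyocyte markers were detected, and their summed level was 124038 to 199711 CPM. Values below are CPM after TMM normalization, and a log2 fold change is sorafenib over water with its standard error.

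Of 34322 genes in the table, 17406 had enough counts to be tested. No gene passed an adjusted p of 0.05 in edgeR's quasi-likelihood test with Benjamini-Hochberg adjustment (0%), and the smallest adjusted p was 0.0778. At an adjusted p under 0.10, 32 genes (0.184%) were called, 23 higher and 9 lower with sorafenib. At an unadjusted p under 0.05 there were 2440 genes (14.0% of those tested), 1234 of them higher (7.09%) and 1206 lower (6.93%). DESeq2 called 438 of 14700 genes (2.98%), 253 higher and 185 lower. The median log2 fold change of all tested genes was 0.00. The single genes below are therefore described by their values in each library, and gene lists by how many members fell under the unadjusted p, read against the 7.09% and 6.93% of all tested genes. None of these counts is a call of the adjusted test. The 2 shares hold for the fit of all 6 libraries. With a library left out, the count over all genes in both directions moved as well. It ran from 1626 of 17836 genes without water replicate 3 to 2835 of 17733 without sorafenib replicate 5. List counts with a library left out therefore have another background, and their swings are not particular to a list.

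The genes that separated the groups best are shown by library, 14 in each direction. In all 28 the treated and control libraries did not overlap, which the rule that chose them required. Across all tested genes, 10.7% had every sorafenib library above every water library and 10.3% had every one below. DESeq2 gave all 28 genes an adjusted p under 0.05, from 1.45e-08 for Oas1k to 0.00137 for Ca8. The genes were chosen by small edgeR p on these same counts, so the DESeq2 values are not separate evidence.

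**Figure D1:**
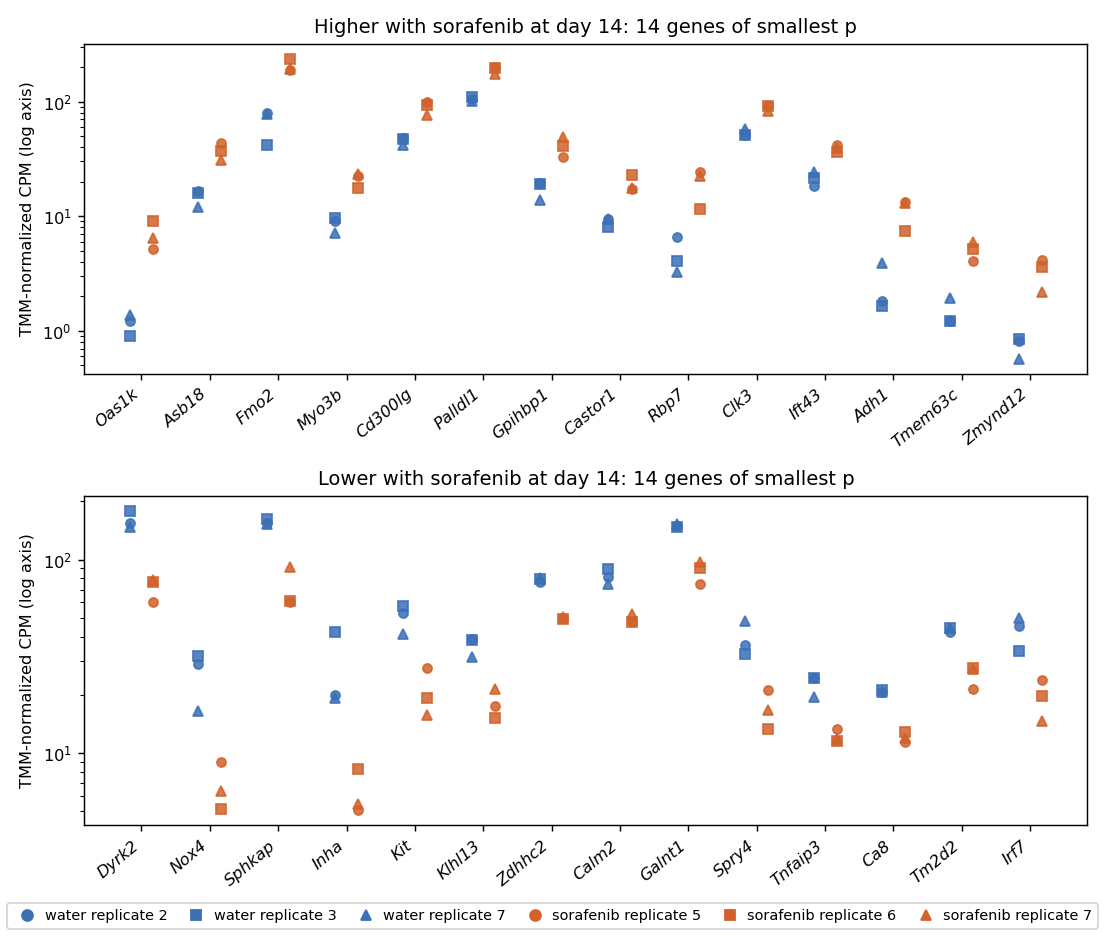
Level of 28 genes in each library at day 14, in TMM-normalized CPM on a log axis. Blue points are the 3 water libraries and orange points the 3 sorafenib libraries, with 1 marker shape per replicate number. The upper panel holds the 14 genes of smallest p that were higher with sorafenib, from Oas1k to Zmynd12, and the lower panel the 14 that were lower, from Dyrk2 to Irf7. The orange and blue points of a gene do not overlap, by the rule that chose these genes.

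Enzymes that oxidize and conjugate drugs and other foreign compounds formed the list with the largest share of higher members. Of 31 tested genes of xenobiotic metabolism, 15 were higher at an unadjusted p under 0.05 and 0 were lower. The median log2 fold change of the list was 0.51, and 28 of the 31 had a fold change above 0. Fmo2, a flavin monooxygenase that oxidizes nitrogen- and sulfur-containing compounds, was measured at 79.7, 42.1 and 77.6 CPM in the water libraries and at 190, 235 and 191 CPM in the sorafenib libraries. The lowest treated library was thus far above the highest control library. The gene lies on chromosome 13 at 75221149-75244377 in mRatBN7.2. Its log2 fold change was 1.63 ± 0.23 (edgeR adjusted p = 0.0778).

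Sult1a1, which attaches sulfate to phenols, was at 32.8, 12.2 and 24.3 CPM with water and at 64.3, 85.8 and 66.6 CPM with sorafenib. Adh1, an alcohol dehydrogenase that also oxidizes retinol and is not in the list, was at 1.81, 1.66 and 3.94 CPM with water and at 13.2, 7.38 and 13.1 CPM with sorafenib. For both genes every sorafenib library lay above every water library. Over the list this held for 14 of 31, and 0 lay below, against 10.7% and 10.3% of all tested genes. Gsta1, a glutathione transferase, was at 9.24 to 14.2 CPM with water and 17.3 to 22.8 CPM with sorafenib. Cyp4b1, a cytochrome P450 of lung and heart, was at 41.1 to 64 CPM with water and 70.9 to 130 CPM with sorafenib. Abcb1a encodes the drug efflux pump P-glycoprotein, which exports many kinase inhibitors from cells. It was at 8.17 to 13.2 CPM with water and 14.9 to 21.9 CPM with sorafenib. Cyp2e1 was the member of largest fold change among those named, at 0.908 to 3.35 CPM against 10.1 to 12.9 CPM, but its exons overlap those of another gene and the counts ignore strand. With each library left out in turn, the list's count of higher members was 11 to 17.

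The receptors that sorafenib binds differed from each other. Of 18 tested target kinases, 5 were lower at an unadjusted p under 0.05 and 0 were higher, and the list's median was -0.09. The count of lower members was 3 without sorafenib replicate 6, sorafenib replicate 7 or water replicate 2. Kit, the receptor of stem cell factor, was at 53.2, 57.6 and 41.1 CPM with water and at 27.4, 19.2 and 15.8 CPM with sorafenib. Its log2 fold change was -1.28 ± 0.21 (edgeR adjusted p = 0.0933), and no treated heart reached the level of any control. Ret, the receptor of the GDNF family, was at 19.5 to 32.6 CPM with water and 15.2 to 18.4 CPM with sorafenib. Kdr, the main VEGF receptor of endothelium, was at 240, 294 and 258 CPM with water and at 215, 130 and 200 CPM with sorafenib. Flt3 and Csf1r, receptors of immune cells, were the remaining members, at log2 fold changes of -1.20 ± 0.42 and -0.75 ± 0.29. Mast cells carry Kit: the summed level of the 16 other neutrophil and mast cell markers was 10.5 to 19.1 CPM with water and 9.96 to 13 CPM with sorafenib, so the groups overlapped. In whole tissue, fewer cells of a type and less RNA per cell cannot be told apart.

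Csf1r overlapped between the groups, at 39.9 to 67.9 CPM with water and 19.9 to 45.1 CPM with sorafenib. Map3k20 and Mapk14, stress-activated kinases of the list, missed the unadjusted p but had every treated library below every control, at 439 to 536 CPM against 283 to 421 CPM and at 108 to 113 CPM against 77.5 to 105 CPM. The exons of Map3k20 overlap those of another gene. Several other targets overlapped. Braf was at 63.4 to 70.3 CPM with water and 65.7 to 75.6 CPM with sorafenib. The fold changes of Flt1 (0.19 ± 0.17), Pdgfrb (-0.11 ± 0.16) and Pdgfra (0.13 ± 0.15) were each close to their standard errors. Flt1 is the decoy-like VEGF receptor, and the PDGF receptors mark pericytes and fibroblasts.

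Genes that report ERK activity were lower in part. Of 21 tested MAPK output genes, 6 were lower at an unadjusted p under 0.05 and 1 was higher, with a median of -0.31, or -0.20 without sorafenib replicate 5, water replicate 2 or water replicate 3. Spry4, a Sprouty protein that damps receptor signalling, was at 36.2, 32.4 and 48.1 CPM with water and at 21.2, 13.4 and 16.7 CPM with sorafenib (log2 fold change -1.19 ± 0.21). Dusp6, the phosphatase that switches off ERK, was at 31 to 35.1 CPM against 12.6 to 27.2 CPM. Ccnd1, cyclin D1, was at 57.3 to 107 CPM against 33.4 to 56.9 CPM. In each of these 3 genes, picked by small p, every sorafenib library lay below every water library. Over the list this held for 7 of 21, and 2 lay above, against 10.3% and 10.7% of all tested genes. Egr1 was lower as well on average, but its groups overlapped, with 4.94, 8.55 and 27.7 CPM in water and 5.32, 1.92 and 2.94 CPM in sorafenib. Myc was the member higher, at 3.15 to 3.68 CPM against 4.47 to 6.09 CPM. Leaving out single libraries gave 4 to 7 lower members.

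Genes that VEGF induces in sprouting endothelium formed the list with the largest share of lower members beside the macrophage markers. Of 25 tested, 12 were lower at an unadjusted p under 0.05 and 2 were higher, and the median was -0.45, or -0.27 without water replicate 3. Nrp2, a VEGF and semaphorin co-receptor, was at 132, 186 and 132 CPM with water and at 87.5, 52.9 and 60.5 CPM with sorafenib (log2 fold change -1.16 ± 0.21). Apln, the tip cell peptide apelin, was at 22.5, 53.2 and 29.5 CPM with water and stood between 14.6 and 16.4 CPM in the treated hearts. Prnd, which encodes the prion-like protein doppel of brain and heart endothelium, was at 1.98, 10.3 and 1.66 CPM with water and at 0.256, 0.06 and 0.255 CPM with sorafenib. The Prnd values rest on few reads, and water replicate 3 was above the other controls. Unc5b, a netrin receptor of arteries and tip cells, was at 68.1 to 83.6 CPM against 35.6 to 55.9 CPM.

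The 2 higher members were Pgf and Rgcc. Pgf, placental growth factor, is a ligand of Flt1 and was at 0.4 to 1.26 CPM with water and 2.82 to 3.7 CPM with sorafenib. Rgcc, a cell cycle regulator, was at 46.7 to 56.9 CPM against 65.9 to 91.1 CPM. The count of lower members was 7 without sorafenib replicate 6 and 8 without water replicate 3, and 10 to 12 without any one of the others. General endothelial markers did not share this: of 23 tested, 3 were lower and 3 higher (0 to 4 lower and 1 to 3 higher with single libraries left out), their median was 0.02, and their summed level was 3274 to 3720 CPM with water and 3459 to 4072 CPM with sorafenib.

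Several genes of mature capillary endothelium were among the 14 most clearly higher. Gpihbp1 carries lipoprotein lipase to the luminal face of capillaries and was at 19.6, 19.2 and 13.8 CPM with water and at 32.6, 40.9 and 48.8 CPM with sorafenib (log2 fold change 1.21 ± 0.19). Cd300lg, a receptor of capillary and venular endothelium, was at 48.5, 47.2 and 41.4 CPM against 99.2, 94.1 and 76.1 CPM. Rbp7, a retinol binding protein of microvascular endothelium and fat, was at 6.64, 4.06 and 3.26 CPM against 24.3, 11.6 and 22.5 CPM. Fabp4 and Cd36, which take up fatty acids in the same cells, were at 125 to 138 CPM against 168 to 243 CPM and at 53.3 to 90.1 CPM against 92 to 136 CPM. They were not among those 14, with ranks of 215 and 583 by p, and Cd36 also belongs to the fatty acid oxidation list. All 5 genes had no overlap between the groups, which the rule had required of Gpihbp1, Cd300lg and Rbp7. The 5 genes were set side by side after their values were seen. They are a description of single genes and not a count over a list. Adipocytes also hold Rbp7, Fabp4 and Cd36: the summed level of 15 adipocyte markers was 2848 to 3477 CPM with water and 2532 to 3962 CPM with sorafenib. That sum includes Fabp4 itself, but Fabp4 was only a small part of it, and 8 of the 15 markers had too few counts to be tested. It was lowest in sorafenib replicate 5 and highest in sorafenib replicate 7, as was the sum of the cardiomyocyte markers. The sum thus rests mostly on a few other genes and cannot show how much fat a library held. The part of fat in the values of these genes was not tested.

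Dyrk2 was the lower gene of smallest p. It encodes a kinase that primes proteins for degradation and is on chromosome 7 at 54348724-54381363 in mRatBN7.2. Water libraries held 155, 179 and 147 CPM and sorafenib libraries 60.4, 76.9 and 78.3 CPM, a log2 fold change of -1.16 ± 0.15 (edgeR adjusted p = 0.0778). The rule that chose it required no overlap between the groups, so leaving out any one library could hardly change its sign. Clk3, a kinase of the related CLK family that phosphorylates splicing factors, was higher, at 50.6, 51 and 57.6 CPM against 92.2, 92.2 and 82.4 CPM. Clk4 and Clk1 were at 63.1 to 71.5 CPM against 89.4 to 104 CPM and at 83.6 to 105 CPM against 107 to 154 CPM. Srsf5, an SR protein of splicing, and Srpk3, a muscle SR protein kinase, were higher too, at log2 fold changes of 0.59 ± 0.15 and 0.64 ± 0.14. Of the 31 splicing regulators tested, 4 were higher and 2 lower at an unadjusted p under 0.05, with a median of 0.05; without water replicate 7, 3 were higher and 0 lower.

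Nox4 and Inha had the largest fold differences among the 14 lower genes of the plot by library. Nox4, a NADPH oxidase that makes hydrogen peroxide, was at 28.7, 31.8 and 16.5 CPM with water and at 8.97, 5.16 and 6.38 CPM with sorafenib (log2 fold change -1.91 ± 0.28, edgeR adjusted p = 0.0778). Inha, the inhibin alpha subunit, was at 20, 42.4 and 19.2 CPM with water and at 5.06, 8.28 and 5.43 CPM with sorafenib. Its control in water replicate 3 was above the other 2, and all treated values lay below all controls. Nos2 and Cybb, which make nitric oxide and superoxide in immune cells, were at 3.03 to 8.07 CPM against 1.74 to 1.92 CPM and at 12.3 to 24.1 CPM against 5.82 to 10.9 CPM. Of 23 tested genes of reactive oxygen and nitric oxide, 5 were lower and 2 higher, with 3 lower and 0 higher when sorafenib replicate 7 was left out and 4 lower and 0 higher without water replicate 3.

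Genes of calcium and cAMP signalling held several lower members. Sphkap anchors protein kinase A near the sarcoplasmic reticulum and was at 155, 162 and 152 CPM with water and at 60.2, 61.3 and 91 CPM with sorafenib (log2 fold change -1.14 ± 0.17, edgeR adjusted p = 0.0778). Calm2, a gene of calmodulin, was at 75.1 to 89.6 CPM against 47.4 to 52.4 CPM. Pde4d, a phosphodiesterase that breaks down cAMP at the ryanodine receptor, was at 187 to 228 CPM against 128 to 169 CPM. Prkar2a, a regulatory subunit of protein kinase A, was at 180 to 202 CPM against 85.8 to 145 CPM. Pde1c, a calmodulin-dependent phosphodiesterase, was the member higher, at 5.87 to 7.43 CPM against 10.6 to 13 CPM. Of 33 adrenergic and cAMP genes, 6 were lower and 1 higher at an unadjusted p under 0.05, and without water replicate 3 the count of lower members was 3. Of 30 calcium handling genes, 5 were lower and 0 higher, and without sorafenib replicate 5 the same list had 5 lower and 5 higher, and without water replicate 7 it had 2 lower.

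Gja1, connexin 43 of the intercalated disc, was at 493, 734 and 709 CPM with water and at 239, 333 and 462 CPM with sorafenib. It was among the 6 lower genes with the largest difference in mean CPM. Kcnj2, the inward rectifier potassium channel that holds the resting potential, was at 82 to 116 CPM against 56.9 to 76 CPM. Channels and gap junction genes as a list had 4 lower and 4 higher of 29, so no direction prevailed; the counts with single libraries left out were 3 to 6 lower and 2 to 7 higher.

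Glucocorticoid response genes were higher in number. Of 24 tested, 9 were higher at an unadjusted p under 0.05 and 3 were lower, with a median of 0.47, which was 0.25 without water replicate 3. Zbtb16, a zinc finger repressor strongly induced by glucocorticoids, was at 211, 94.9 and 242 CPM with water and at 381, 534 and 482 CPM with sorafenib. Ddit4, an inhibitor of mTOR complex 1, was at 38.9 to 44.1 CPM against 62.9 to 105 CPM. Fam107a, an actin-binding stress gene, was at 8.92 to 18.2 CPM against 22.2 to 29.4 CPM. Angptl4, an inhibitor of lipoprotein lipase, was at 11.8, 2.62 and 3.71 CPM against 28.3, 32.5 and 16.5 CPM. These 4 genes, picked by small p, did not overlap between groups. Over the list, 9 of 24 had every treated library above every control and 2 below, against 10.7% and 10.3% of all tested genes. Dusp1 belongs to the lower members, at 164 to 234 CPM against 122 to 137 CPM. The count of higher members was 9 to 11 with any one library left out. On the list's mean log2 level, water replicate 3 was lowest, 0.52 below the mean of the water libraries, and the treated libraries were 0.55 to 0.65 above it.

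Castor1, an arginine sensor that also restrains mTOR complex 1, was among the 14 most clearly higher genes, at 8.01 to 9.54 CPM against 17.2 to 23 CPM. Txnip, which restrains glucose uptake, had the largest difference in mean CPM of the 6 higher genes chosen by that measure, at 1163, 791 and 1333 CPM against 1608, 1796 and 1867 CPM. Genes of the circadian clock differed in both directions. Per2 and Per3, which repress the clock's activators, were at 63.6 to 102 CPM against 143 to 156 CPM and at 91.9 to 129 CPM against 157 to 185 CPM. Cry2, their partner, was at 54.1 to 74.2 CPM against 79.7 to 102 CPM. Clock, an activator of these genes, was lower, at 145 to 166 CPM against 97.4 to 107 CPM, and its exons overlap those of another gene. Of 20 clock genes tested, 4 were higher and 3 lower, with a median of 0.24, and without water replicate 2 there were 8 higher. The labels give no hour of collection, and its part in these values was not tested.

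Chaperones and folding enzymes of the endoplasmic reticulum were lower. Of 24 tested genes of this stress response, 10 were lower at an unadjusted p under 0.05, 0 were higher, and 20 had a fold change below 0. The median was -0.34, or -0.22 without water replicate 7. Hspa5, the master chaperone BiP, was at 298, 300 and 559 CPM with water and at 205, 160 and 267 CPM with sorafenib (log2 fold change -0.87 ± 0.28). Pdia6, a disulfide isomerase, was at 112 to 125 CPM against 65.8 to 85.9 CPM. Sdf2l1, a BiP cofactor, was at 4.88 to 8.8 CPM against 2.43 to 3.27 CPM. Hyou1, a chaperone that recharges BiP, was at 154 to 247 CPM against 108 to 130 CPM. No treated library reached a control library in any of these 4 genes, which were picked by small p or after their values were seen. Over the list, 10 of 24 had every treated library below every control and 1 above, against 10.3% and 10.7% of all tested genes. The count of lower members was 5 without water replicate 7, which had the highest mean level of the list, 6 without sorafenib replicate 6, and 9 to 12 without any one of the others.

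A classical response element of these promoters, the ER stress element, is CCAAT followed after 9 further bases by CCACG. It was searched on both strands in the 250 bases before each RefSeq start (build GRCr8). It was found in 21 of 27457 promoters (0.0765%) and in 16 of 12531 promoters of tested genes (0.128%). Among list members with a promoter sequence, 8 of 19 held it (42.1%). Of those 8 genes, 7 had a fold change below 0. Their median log2 fold change was -0.47, against -0.25 for the list members without the element. Stretches around the element are printed in the gene's direction with the element in capitals, for 3 chaperones whose levels are given here. Hspa5 is at chr3:38452933-38453015 on the plus strand, Hsp90b1 at chr7:23012411-23012509 on the minus strand and Canx at chr10:35158029-35158107 on the minus strand.
Hspa5: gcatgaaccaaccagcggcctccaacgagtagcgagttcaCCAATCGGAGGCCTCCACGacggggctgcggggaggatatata
Hsp90b1: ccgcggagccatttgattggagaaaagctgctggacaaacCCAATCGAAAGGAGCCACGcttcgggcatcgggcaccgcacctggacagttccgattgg
Canx: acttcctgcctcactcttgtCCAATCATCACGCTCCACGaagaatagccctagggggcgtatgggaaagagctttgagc
Hsp90b1, the chaperone GRP94, was at 205 to 322 CPM with water and 143 to 205 CPM with sorafenib. Canx, the lectin chaperone calnexin, was at 404 to 440 CPM against 227 to 362 CPM, and its exons overlap those of another gene. The match is a description of the letters and was not tested for a role in these values.

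Cholesterol synthesis and other targets of the sterol-regulated factors SREBP were also lower in part. Of 28 tested, 10 were lower and 2 higher at an unadjusted p under 0.05, with a median of -0.36. Srebf2 encodes SREBP2, the transcription factor that drives cholesterol synthesis, and was at 78.8, 98.7 and 87.3 CPM with water and at 63.9, 58.8 and 56.1 CPM with sorafenib. Sqle, squalene epoxidase, was at 7.63 to 11.1 CPM against 4.14 to 5.38 CPM. Hmgcs1, the synthase of HMG-CoA, was at 41.4 to 62.1 CPM against 30 to 37.3 CPM. Pnpla3, a lipid droplet hydrolase, was at 9.71, 21.2 and 35.9 CPM with water and at 2.12, 4.5 and 2.36 CPM with sorafenib, a log2 fold change of -2.88 ± 0.49. Its control values spread widely, and the lowest of them was still above every treated value. Elovl6, an elongase of fatty acids, was higher, at 5.31 to 9.27 CPM against 11.6 to 17.8 CPM. Between 7 and 10 members were lower when single libraries were left out. The sterol element TCACNCCAC, searched in the same promoters, was in 0.976% of all, in 0.950% of those of tested genes and in none of the 18 list promoters.

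**Figure D2:**
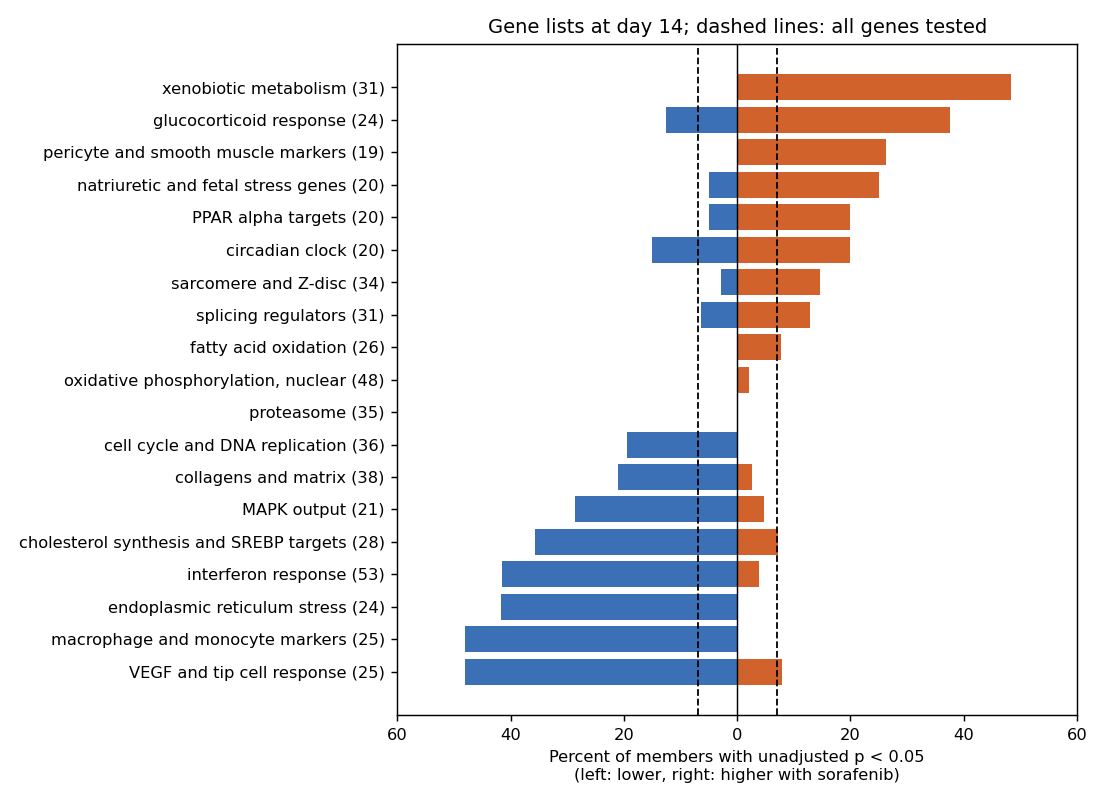
Percent of the tested members of 19 gene lists with an unadjusted p under 0.05 at day 14, lower with sorafenib to the left and higher to the right. The number tested is in parentheses, and dashed lines mark all 17406 tested genes (6.93% lower, 7.09% higher). Xenobiotic metabolism reaches 15 of 31 on the right, and the VEGF and macrophage lists 12 of 25 each on the left.

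Of the genes that mark a stressed ventricle, a few were higher. In the list of natriuretic and fetal stress genes, 5 of 20 were higher and 1 was lower at an unadjusted p under 0.05, with a median of 0.27. With single libraries left out, 4 to 7 were higher, and the median was 0.52 without water replicate 7. Nppb, B-type natriuretic peptide, was at 58, 55.1 and 60.7 CPM with water and at 79, 112 and 176 CPM with sorafenib (log2 fold change 1.08 ± 0.24). Nppa, the atrial peptide, was at 11.7, 21.7 and 13.3 CPM with water and at 69.1, 39.4 and 223 CPM with sorafenib, and sorafenib replicate 7 was far above the rest. Myh7, the slow myosin heavy chain, was at 1829, 1529 and 1329 CPM against 3099, 3257 and 5807 CPM. Its exons overlap those of another gene. Myh6, the fast chain of the rodent ventricle, was at 18516 to 26035 CPM against 17386 to 26749 CPM. Cd44 was the member lower, at 35.8 to 53.2 CPM against 14.9 to 32.6 CPM. Atrial tissue carries Nppa: the summed level of the 15 other atrial markers was 815 to 917 CPM with water and 657, 616 and 834 CPM in sorafenib replicates 5, 6 and 7. Their part in the Nppa values was not tested.

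Tcap, the titin cap protein of the Z-disc, was at 552, 427 and 346 CPM with water and at 736, 903 and 1009 CPM with sorafenib (log2 fold change 1.00 ± 0.21). Asb18, a striated-muscle adaptor of ubiquitin ligases, was at 16.5, 16 and 12.1 CPM against 43.1, 37.1 and 30.8 CPM (log2 fold change 1.31 ± 0.18, edgeR adjusted p = 0.0778). Both were higher in every treated library, which the rule that chose them required. Trim54, a ubiquitin ligase of the sarcomere, was at 75.4 to 105 CPM against 128 to 169 CPM. Sarcomere genes as a list had 5 higher and 1 lower of 34, with a median of 0.05, and without sorafenib replicate 5 there were 11 higher.

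Rbm20, the splicing factor named by the series, was at 246, 333 and 367 CPM with water and at 282, 377 and 341 CPM with sorafenib. The log2 fold change was 0.08 ± 0.19, and the groups overlapped. Ttn, its best known splicing target, was at 83262 to 107068 CPM with water and 65521 to 107062 CPM with sorafenib. Camk2d, another target, was at 212 to 302 CPM against 213 to 260 CPM. Counts per gene do not show which exons were used. Of 25 genes of RBM20 and its targets, 5 were higher and 3 lower, with a median of 0.08. Without sorafenib replicate 5 there were 8 higher and 1 lower.

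Of 48 nuclear genes of oxidative phosphorylation, 1 was higher at an unadjusted p under 0.05 and 0 were lower, and the median was 0.08. On the list's mean log2 level, sorafenib replicate 5 lay 0.44 below the mean of the water libraries, while sorafenib replicates 6 and 7 lay 0.19 and 0.31 above it. Without sorafenib replicate 5, 20 of the 48 were higher. Fatty acid oxidation went the same way, with 2 of 26 higher in all libraries and 17 without sorafenib replicate 5. The mitochondrial ribosome list had 1 lower and 0 higher of 31, and 0 lower and 1 higher without that library. Genes of mitochondrial biogenesis and dynamics had 1 lower and 1 higher of 27, and 1 lower and 4 higher without it. The proteasome list had 0 of 35 genes under the unadjusted p in edgeR's test, and 4 higher without sorafenib replicate 5. Depth and the share of Rn45s counts move with this library, and their part was not tested.

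**Figure D3:**
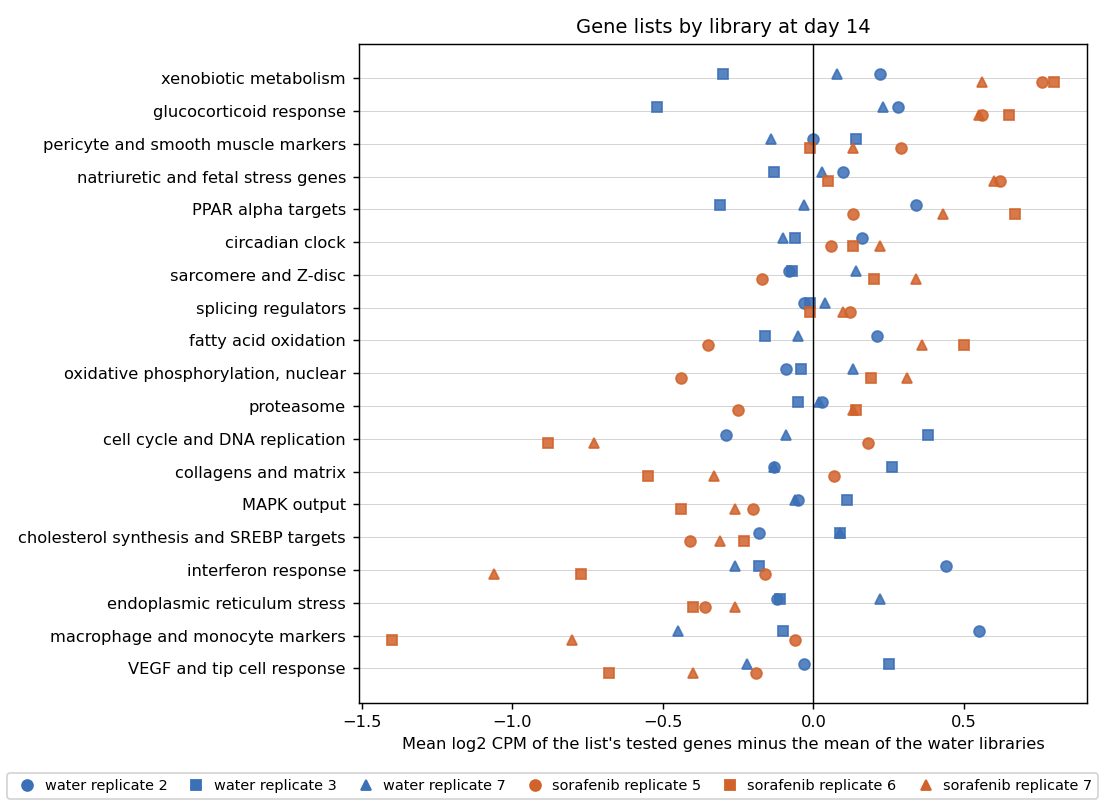
Mean log2 CPM of each list's tested genes in each library, minus the mean of the water libraries. Blue points are water, orange points sorafenib, with 1 marker shape per replicate number. In xenobiotic metabolism the treated libraries lie between 0.56 and 0.80, and in oxidative phosphorylation sorafenib replicate 5 lies at -0.44 and the other treated libraries at 0.19 and 0.31.

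Interferon-stimulated genes were lower, and unevenly between libraries. Of 53 tested, 22 were lower and 2 higher at an unadjusted p under 0.05, 48 had a fold change below 0, and the median was -0.78. The median was -0.43 without water replicate 2 and -1.08 without sorafenib replicate 5. Irf7, the transcription factor that amplifies the interferon response, was at 45.4, 33.7 and 49.6 CPM with water and at 23.8, 19.7 and 14.7 CPM with sorafenib (log2 fold change -1.14 ± 0.21). Rsad2, the antiviral enzyme viperin, was at 45.8 to 55.8 CPM against 19.1 to 36.9 CPM. Ube2l6, the enzyme that attaches ISG15, was at 6.4 to 10.5 CPM against 2.23 to 4.42 CPM, and Isg15 itself was at 2.72 to 3.77 CPM against 0.383 to 1.67 CPM. In all of these, picked by small p or after their values were seen, the treated libraries lay below the controls. Over the list this held for 13 of 53, and 3 lay above, against 10.3% and 10.7% of all tested genes. The count of lower members was 9 without sorafenib replicate 7, 12 without sorafenib replicate 6, 14 without water replicate 2, and 23 to 29 without any one of the others. Oas1k went the other way and was the gene of smallest p in the whole comparison. This member of the oligoadenylate synthetase family, on chromosome 12 at 35762483-35771710 in mRatBN7.2, was at 1.21, 0.908 and 1.37 CPM with water and at 5.19, 9.06 and 6.45 CPM with sorafenib (log2 fold change 2.57 ± 0.31, edgeR adjusted p = 0.0778). It has near relatives in the same gene cluster, between which reads may be split.

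The interferon-stimulated response element, GAAA repeated after 2 further bases, was searched on both strands in the same 250-base windows. It was in 3.29% of all promoters, in 2.65% of those of tested genes and in 23 of the 41 list members with a promoter sequence (56.1%). All 23 had a fold change below 0, as had 48 of all 53 tested list members. Their median was -0.81, against -0.69 for the list members without it. The match is a description of the letters and was not tested for a role in these values. The stretches shown belong to 3 lower genes and hold the element in capitals, in the gene's direction. Irf7 is at chr1:205800043-205800132 on the minus strand, Rsad2 at chr6:48788218-48788307 on the minus strand and Samd9 at chr4:32138959-32139034 on the minus strand.
Irf7: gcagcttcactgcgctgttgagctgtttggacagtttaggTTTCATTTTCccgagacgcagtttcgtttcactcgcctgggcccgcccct
Rsad2: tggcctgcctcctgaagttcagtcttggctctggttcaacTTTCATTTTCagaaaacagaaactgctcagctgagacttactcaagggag
Samd9: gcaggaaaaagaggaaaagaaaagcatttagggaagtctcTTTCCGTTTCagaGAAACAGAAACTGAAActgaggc
Samd9, an antiviral factor whose window holds 3 matches, was at 60.1, 28.2 and 26 CPM with water and at 26.3, 7.98 and 10.2 CPM with sorafenib, so its groups overlapped.

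Macrophage markers were lower beside the interferon genes. All 25 tested had a fold change below 0, 12 were lower at an unadjusted p under 0.05 and 0 were higher, with a median of -0.75. The median was -1.31 without sorafenib replicate 5 and -0.45 without water replicate 2, and with single libraries left out 21 to 25 members had a fold change below 0. The summed level of the 25 was 325 to 616 CPM with water and 173 to 391 CPM with sorafenib, so the groups overlapped. No marker of the list was at 0. Mpeg1, the pore-forming perforin-2 of macrophages, was at 45.4, 24.2 and 17 CPM against 16.3, 7.8 and 7.92 CPM. C1qa and C1qb, made by resident macrophages for complement, were at 12.1 to 22.7 CPM against 2.94 to 12.1 CPM and at 8.63 to 13.7 CPM against 2.1 to 7.63 CPM. Water replicate 2 had the highest value in each of these 3 genes. Without it the list had 3 lower members, without sorafenib replicate 6 or 7 it had 5, and without sorafenib replicate 5 it had 17. Class II antigen presentation, with 6 of 19 lower, had 2 lower without sorafenib replicate 6, 9 without water replicate 7 and 0 without water replicate 2 by the unadjusted p in edgeR's test. The part of macrophage number in the interferon values was not tested.

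Basement membrane genes were among those with the largest differences in mean CPM. Col4a1 and Col4a2, the chains of type IV collagen, were at 797 to 1153 CPM against 495 to 735 CPM and at 616 to 970 CPM against 430 to 601 CPM. Lamc1, a laminin chain of the same sheet, was at 849 to 1099 CPM against 634 to 725 CPM. Col15a1 was at 469 to 662 CPM against 317 to 378 CPM, and its exons overlap those of another gene. Of 38 genes of collagens and matrix, 8 were lower and 1 higher, with a median of -0.24 that ranged from -0.41 without sorafenib replicate 5 to -0.14 without sorafenib replicate 6 or water replicate 3. The count of lower members was 21 without sorafenib replicate 5, 3 without sorafenib replicate 6 or water replicate 3, 5 without sorafenib replicate 7, and 8 to 9 without either of the others.

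Growth genes were lower in number, and their count also changed with the library left out. Of 36 cell cycle genes, 7 were lower and 0 higher, and 33 had a fold change below 0. Mcm3, a subunit of the replicative helicase, was at 5.6 to 8.65 CPM against 2.17 to 2.95 CPM. E2f1, which drives entry into DNA synthesis, was at 4.17 to 7.37 CPM against 2.28 to 2.88 CPM. Without sorafenib replicate 5 the list had 21 lower members and without water replicate 3 it had 3. Igf1, insulin-like growth factor 1, was at 143 to 196 CPM against 86.6 to 131 CPM, and Igfbp5, its binding protein, at 59.9 to 98.2 CPM against 35.9 to 40.8 CPM. Tfrc, the transferrin receptor of iron uptake, was at 73.9, 292 and 363 CPM with water and at 76.1, 60 and 97.4 CPM with sorafenib, and water replicate 2 lay within the treated range. Hamp, the iron hormone hepcidin, was at 0.0571 to 0.267 CPM against 1.15 to 1.6 CPM, on few reads.

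Of 19 pericyte and smooth muscle markers, 5 were higher and 0 lower, with a median of -0.02, and 3 were higher without sorafenib replicate 5 or water replicate 7. Myh11, the smooth muscle myosin, was at 44.3 to 51.2 CPM against 70.4 to 115 CPM, and Acta2, smooth muscle actin, at 27.8 to 32.9 CPM against 41 to 71.5 CPM. Sorafenib replicate 5 had the highest value in both. The summed level of the list was 2781 to 2962 CPM with water and 2602 to 3132 CPM with sorafenib. Mesothelial markers, which show how much of the heart's outer lining a piece holds, were summed at 58.9 to 141 CPM with water and 40.3 to 87.3 CPM with sorafenib. Of 11 tested, 10 had a fold change below 0, with a median of -1.55, and 1 was lower at an unadjusted p under 0.05. Without water replicate 2 the median was -2.12 and 7 were lower. Without water replicate 3 it was -0.63 and 0 were lower. The amount of lining thus varied between libraries, and its part in other values was not tested.

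The hearts of day 28 share no library with those of day 14, so they give a second measure of the genes chosen at day 14. Of the 28 genes in the plot by library, 27 (96.4%) had a fold change of the same sign at day 28, against 11648 of 16641 tested at both days (70.0%). Of the 31 genes with an adjusted p under 0.10 that were tested at both days, 30 (96.8%) had the same sign. Spry4 had -1.19 ± 0.21 at day 14 and -1.41 ± 0.20 at day 28, and Dyrk2 had -1.16 ± 0.15 and -1.05 ± 0.16. Nox4 was at -1.91 ± 0.28 and -1.54 ± 0.39, and Fmo2 at 1.63 ± 0.23 and 1.09 ± 0.25. Myo3b, an unconventional myosin with a kinase domain, had 1.30 ± 0.19 and 1.74 ± 0.41. These are examples of genes with similar sizes at both days. Of the 28, only Spry4, Myo3b and Zmynd12 (2.13 ± 0.38 and 2.86 ± 0.65) were larger in size at day 28. All others were smaller, such as Asb18 at 1.31 ± 0.18 and 0.47 ± 0.27. The 28 were chosen by small p at day 14, which favours large fold changes at that day. None of the 28 passed an edgeR adjusted p of 0.05 at day 28, where 1 treated library held 1036483 counts.

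Rbp7 was the gene of opposite sign, at 2.06 ± 0.33 at day 14 and -0.48 ± 0.35 at day 28. Inha was at -2.12 ± 0.33 and -0.12 ± 0.35, Adh1 at 2.18 ± 0.37 and 0.04 ± 0.47, and Oas1k at 2.57 ± 0.31 and 0.54 ± 0.45. The stress gene Nppb had 1.08 ± 0.24 and -0.24 ± 0.36, and Pgf had 1.95 ± 0.42 and -0.83 ± 0.38. In a fit of all 12 libraries, no gene of 18174 passed an adjusted p of 0.05 for the difference between the days by edgeR's quasi-likelihood test (0%). At an unadjusted p under 0.05 there were 803, and DESeq2 called 9. The difference of day 28 minus day 14 was -2.56 ± 0.52 for Rbp7, with an edgeR adjusted p of 0.717, the smallest value of any gene in that fit. Gene lists are given side by side. The median of the VEGF list was -0.45 at day 14 and -0.57 at day 28, that of the macrophage markers -0.75 and -0.77, and that of the interferon genes -0.78 and -0.59. Xenobiotic metabolism had medians of 0.51 and 0.25, and the glucocorticoid genes 0.47 and -0.02. Differences between the days of list medians were not tested.

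**Figure D4:**
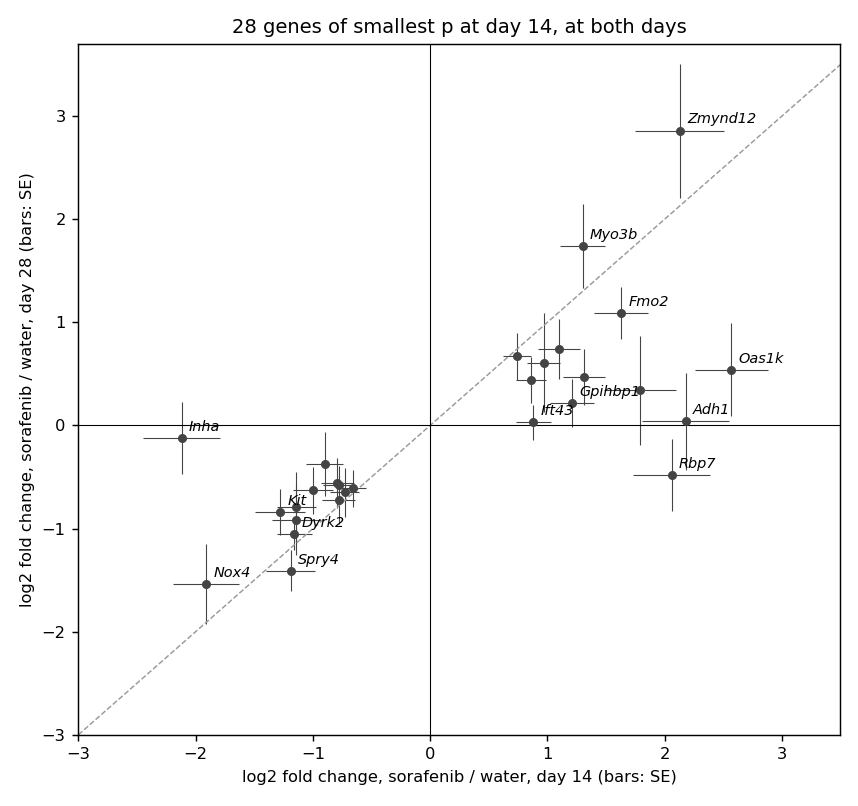
Log2 fold change of sorafenib over water at day 14 (horizontal) and day 28 (vertical) for the 28 genes of smallest p at day 14, with standard errors as bars and the line of equal values dashed. Genes such as Dyrk2, Spry4 and Nox4 lie near the line, and Inha, Adh1 and Rbp7 lie near or across 0 at day 28.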

How the data were processed

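Whole rat hearts gave RNA from which ribosomal RNA was removed, and paired reads were made with a kit that marks strand, per the labels' protocols. Read counts per gene were deposited, made by the authors with featureCounts 2.0.1 in paired mode without a strand setting on a RefSeq annotation of mRatBN7.2, per the file headers. STAR is named without a version in the submitters' processing notes. Reads of overlapping and antisense genes therefore cannot be told apart: exons of 5788 of 34322 genes overlap those of another gene. The day 14 table has 2 further count columns that fit no label, which were left out. Coordinates of genes are those of the outermost exons in the deposited table, and the other column used is exon length.

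Groups come from the labels. The test on the 6 libraries of day 14 was that of edgeR 4.0.16 under R 4.3.3 (quasi-likelihood test, robust dispersion, filterByExpr, TMM), and a gene passed at a Benjamini-Hochberg adjusted p below 0.05. A fit of all 12 libraries tested the difference between the days. Standard errors were taken as the absolute log2 fold change over the square root of F. The log2 CPM used for principal components and list means has a prior count of 2. Alternatives were DESeq2 1.42.0, RLE factors, other filters, no robust dispersion, all groups in the fit, an adjusted p of 0.10 and each library left out.

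The members, the 54 gene lists and the rule for named genes were chosen with earlier results of these data known. The rule takes 14 genes per direction by smallest p and 6 by largest difference in mean CPM, all with a mean of at least 1 CPM, a gene symbol that is not a locus number, no exon overlap and no overlap between the groups. It adds up to 4 members of smallest p per list and 15 genes by name; some genes that the rule names are not reported here. Abcb1a, Canx, Csf1r, Cyp4b1, Hmgcs1, Hsp90b1, Hspa5, Isg15, Map3k20, Mapk14, Rgcc, Samd9 and Unc5b were named outside it, after their values were seen. Promoter sequences are RefSeq's for GRCr8, matched by symbol, and were not used for coordinates of the counts.

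On simulated counts with 200 changed genes among 17048, the day 14 test recovered 49.0% of the 2-fold changes and 7.1% of the 1.5-fold changes. It made 9 false calls. The test of the difference between days, run on 17890, recovered 1.1% of the 2-fold changes. Changed genes were drawn from the better expressed ones, and the noise of each gene was drawn on its own. Shifts shared by many genes of a library, as in sorafenib replicate 5, were not simulated, so these shares hold only for such simulated counts. Replicates of a group differed by more than sampling noise, with a chi-square per gene of at least 7.496 in every pair.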

Additional observations from a re-analysis of the deposited data

Results flagged for a closer look

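Among the genes named here, Pgf and Fabp4 had all treated libraries on opposite sides of the controls at the 2 days. Pgf, placental growth factor, was at 0.4 to 1.26 CPM with water and 2.82 to 3.7 CPM with sorafenib at day 14, and at 3.13 to 4.27 CPM against 1.92 to 2.48 CPM at day 28. The water libraries of day 14 held only 23, 14 and 7 counts of this gene. Sorafenib replicate 3 of day 28 held 1036483 counts over all genes, so its 2.48 CPM rests on very few reads and the separation at day 28 is fragile. The log2 fold change of Pgf was 1.95 ± 0.42 at day 14 and -0.83 ± 0.38 at day 28. The difference of day 28 minus day 14 was -2.81 ± 0.54, with an edgeR adjusted p of 0.717. Fabp4, a fatty acid binding protein of capillaries and fat, was at 125 to 138 CPM against 168 to 243 CPM at day 14 and at 280 to 317 CPM against 202 to 254 CPM at day 28. Its log2 fold change was 0.70 ± 0.17 and then -0.41 ± 0.17, a difference of -1.14 ± 0.23 (edgeR adjusted p = 0.717). In both genes every control library of day 28 lay above every control library of day 14. The days come from separate tables, so a level set across them also carries whatever differed between those.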

How the results depend on the processing

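No gene passed at day 14 with RLE factors, a filter of 1 CPM in 3 libraries or no robust dispersion. DESeq2 called 438 (253 higher, 185 lower), the fit of all 4 groups 4 (2 and 2), no filter on low counts 87 (59 and 28), and an adjusted p below 0.10 gave 32 (23 and 9). With single libraries left out, 0 to 27 genes passed (0 to 20 higher, 0 to 7 lower): 27 without water replicate 2, among them Cyp2e1, Oas1k, Pnpla3, Rbp7, Sult1a1 and Tfrc, 9 without sorafenib replicate 5, among them Dyrk2, Kit, Oas1k and Rsad2, and 0 without any one of the others. The cause was not tested.

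For the difference between the days DESeq2 called 9 genes. No paired analysis was possible because the groups of day 14 share only number 7; with the number as a replicate block within each day, the fit of the difference called 2 genes, Msln and Muc16. Leaving out single libraries gave 0 to 1 genes, and 1 only without water replicate 2 of day 14. RLE factors, both other filters, no robust dispersion and an adjusted p below 0.10 gave 0.

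Of 1296 fold changes of the 108 genes named here over 12 settings, 9 had the other sign, all in genes near 0. With single libraries left out, their log2 fold changes were -0.16 to 0.11 for Camk2d, -0.14 to 0.16 for Myh6, -0.07 to 0.20 for Rbm20 and -0.18 to 0.15 for Ttn. A gene whose groups did not overlap could hardly change sign when a library was left out. Of 648 list medians over these settings, 15 moved by more than the spread between libraries, all with a library left out, 7 of them without sorafenib replicate 5. Genes at a few counts per library, such as Prnd and Hamp with sorafenib and water respectively, are limited by depth.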
